A study of Mus musculus with 24 samples.

Results

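Organoids labelled knockout (KO, genotype label Brca1-/-) were compared with organoids labelled heterozygous (HET, Brca1+/-) after culture without dihydrotestosterone (DHT), the potent androgen of the prostate. Libraries were chosen by title and genotype label, which gave 3 HET and 3 KO libraries out of 24 in the series. An organoid is a small epithelial structure grown in a gel from dissociated tissue. Here single cells from the anterior prostate lobes of mice aged 3 months were embedded in Matrigel and fed a serum-free medium with EGF, Noggin, R-Spondin, the TGF-beta receptor inhibitor A83-01 and the ROCK inhibitor Y27632. The 6 matching libraries grown with DHT and the 3 wild-type (WT) libraries without DHT are used for reference. How Brca1 was deleted, in which cells, and whether replicates came from separate animals or cultures are not given in the labels, so each p-value reflects only how far these particular libraries spread, which may be technical.

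BRCA1 is a ubiquitin ligase subunit that, with BARD1, PALB2 and BRCA2, acts in the repair of broken DNA by homologous recombination, and it also protects stalled replication forks. Cells that lack it repair double-strand breaks by more error-prone routes. In the prostate, luminal cells secrete, basal cells line the gland beneath them, and androgens such as DHT drive growth and secretion, so that androgen withdrawal is the principle of hormonal treatment of prostate cancer. The series title names heterozygous and complete loss of this gene and androgen deprivation as its subject.

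The 3 HET libraries held 29409564, 42857639 and 58445041 estimated reads, and the 3 KO libraries held 25233980, 46652143 and 46745248. Replicate 1 of each group stood apart from the rest on the first principal component, at -77.2 in HET and -77.2 in KO. Mitochondrial transcripts took 9.40%, 4.53% and 2.41% of reads in HET replicates 1 to 3 and 9.97%, 4.16% and 2.61% in KO. Libraries of the same number thus resembled each other, and their deviations from the group means correlated at 0.614, 0.231 and 0.690 across genes. Summed markers of prostate epithelium lay between 6894 and 7518 CPM (reads scaled to a common library size) in HET and between 7201 and 8026 in KO, with all 11 markers detected. Results below come from a fit over all 18 organoid libraries, in which a gene counts as called at an adjusted p under 0.05. Counts from the paired fit over the 6 compared libraries, with the replicate number as a block, are given beside those of the gene lists. The pairing was chosen from the same expression values that this fit tests, so its counts are no separate support. Over all genes the paired fit called 8.75% higher and 9.93% lower in KO. Each call was also repeated with 1 of the 6 compared libraries left out in turn, and the calls lost in that way are named.

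Brca1, on chromosome 11 (101488764 to 101551955, minus strand, GRCm38), was still transcribed in the KO-labelled organoids. It stood at 20.3, 18.5 and 17.2 CPM in HET replicates 1 to 3 and at 13.1, 10.9 and 10.3 CPM in KO. Every KO library was below every HET library. The log2 change was -0.71 (SE 0.128, edgeR adjusted p = 0.00539). The full-length transcript carried most of the signal in both groups, at 3.81, 3.79 and 3.90 TPM (a read share scaled by transcript length) in HET and 2.59, 2.25 and 2.26 in KO. The WT mean without DHT was 12.9 CPM (SD 1.49, n = 3), close to KO. A transcript that lacks some exons is still counted, so the RNA level checks the labels only in part, and every direction below rests on the labels.

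**Figure D1:**
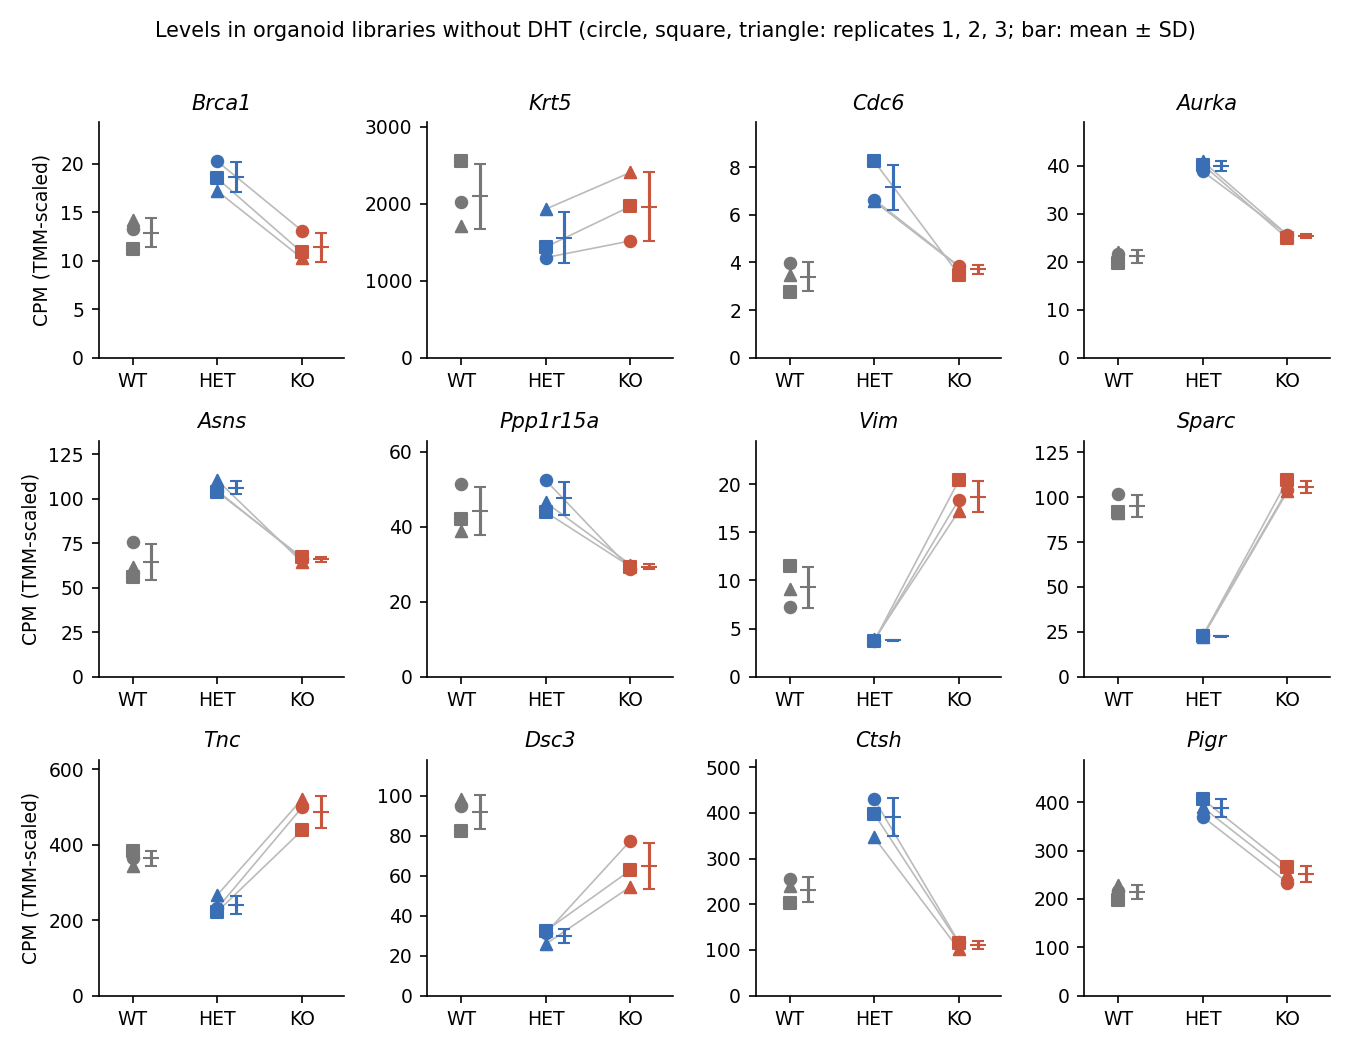
Level in CPM (vertical axes, each from 0) of 12 genes in the 3 WT, 3 HET and 3 KO organoid libraries without DHT. Points are libraries, grey lines join HET and KO libraries of the same replicate number, and bars give mean ± SD. Brca1, Cdc6, Aurka, Asns, Ppp1r15a, Ctsh and Pigr are lower and Vim, Sparc, Tnc and Dsc3 higher in all 3 KO than in all 3 HET libraries, while for Krt5 the groups overlap.

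Loss of both labelled copies of Brca1 against loss of 1 went with changes in 448 of 15415 genes tested (2.91%). KO organoids held more RNA of matrix and mesenchymal genes such as Sparc and Vim. They held less RNA of DNA replication and mitosis genes, of homologous recombination genes and of unfolded protein and integrated stress response genes. The number of genes higher in KO was 208 (1.35% of those tested), and 240 were lower (1.56%). Among called genes the change exceeded 1 on the log2 scale in 165 and stayed under 0.5 in 80. Groups did not overlap in 444 of the 448, beside 12.1% of all genes tested. The paired fit of the 6 libraries called 2722 of 14578 genes (18.7%), 1275 higher (8.75%) and 1447 lower (9.93%). The same 6 libraries without pairing gave 27 calls. That fit called 0 members of the G1/S, G2/M, homologous recombination, stress response and matrix lists, and 2 of the mesenchymal transition list. Without both replicates 1, which stood apart, 275 genes were called, and without HET replicate 2 or KO replicate 2 the counts were 229 and 226.

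**Figure D2:**
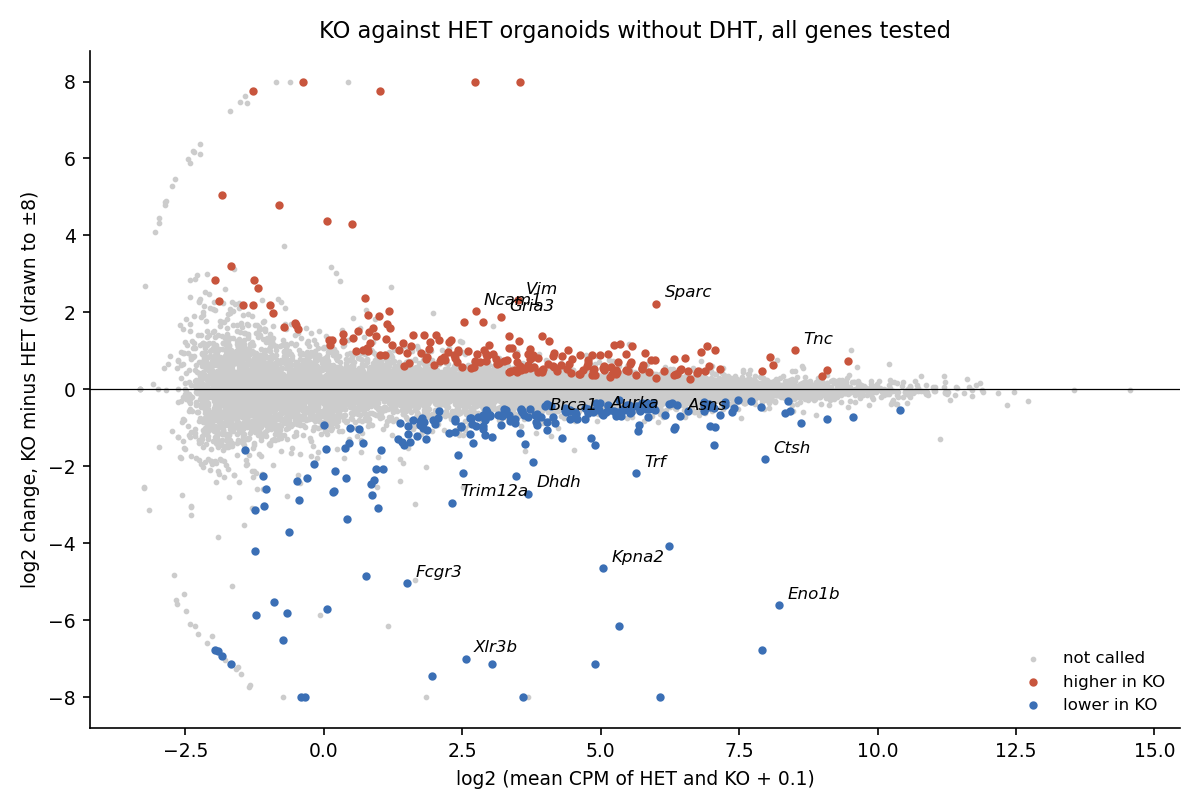
Log2 change of KO minus HET without DHT (vertical axis, drawn to ±8) against mean level (horizontal axis, log2 CPM) for each of 15415 genes tested. Red and blue points are the 208 genes higher and 240 lower in KO, and grey points were not called. The labelled genes Eno1b and Kpna2 belong to families of near-identical copies.

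Genes of DNA replication, which are switched on as cells enter S phase, were lower in KO organoids. Of 30 tested members of the G1/S list, 13 fell and 0 rose (43.3% fell, beside 1.56% of all genes), and all 30 had log2 changes below 0. The list median was -0.51, against -0.000175 over all genes. Cdc6, which loads the replicative helicase onto origins, stood at 6.64, 8.25 and 6.57 CPM in HET and 3.84, 3.48 and 3.81 CPM in KO. It fell by 0.95 on the log2 scale (SE 0.156, edgeR adjusted p = 0.00298). Uhrf1, which carries DNA methylation through replication, had 52.6, 52.6 and 63.2 CPM in HET and 34.6, 36.2 and 40.8 CPM in KO. All KO values of both genes lay below all HET values. The helicase subunit gene Mcm3 went from 33.4, 39.2 and 45.1 CPM to 23.9, 22.9 and 29.0 CPM (log2 -0.64, SE 0.121, edgeR adjusted p = 0.00799), a call lost in 1 of the 6 repeats with a library left out, and the chromatin assembly gene Chaf1a had a log2 change of -0.58 (edgeR adjusted p = 0.00304). Pairing raised this to 25 of the 30, all lower. Leaving out single libraries left between 4 and 10, leaving out both replicates 1 left 7, and transcript length offsets left 6. Mean WT levels were close to KO or below it for the genes named here. They were 3.40 CPM for Cdc6 (SD 0.611, n = 3) and 32.5 for Uhrf1 (SD 1.22, n = 3), against KO means of 3.71 and 37.2. For Mcm3 (23.6 CPM, SD 0.895, n = 3) and Chaf1a (16.5 CPM, SD 0.135, n = 3) the KO means were 25.3 and 18.4 CPM.

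Mitosis genes were lower by the same order of size. Of 34 tested members of the G2/M list, 17 fell and 0 rose (50% fell), all 34 were below 0, and the median was -0.53. Aurka, a spindle pole kinase, had 38.8, 40.2 and 40.9 CPM in HET and 25.6, 24.8 and 25.6 CPM in KO. Its log2 change was -0.66 (SE 0.082, edgeR adjusted p = 0.000254). Bub1b, a spindle checkpoint kinase, had 71.3, 66.5 and 69.1 CPM against 48.0, 45.8 and 50.9 CPM (log2 -0.52, SE 0.072, edgeR adjusted p = 0.00081). In both genes the groups were well apart. Plk1, the mitotic polo kinase, fell by 0.58 (SE 0.098, edgeR adjusted p = 0.00329) and the centrosome kinase gene Nek2 by 0.52 (SE 0.087, edgeR adjusted p = 0.00329). With pairing all 34 were called, each lower. Without single libraries between 8 and 19 members were called, without both replicates 1 it was 18, and with length offsets 8. WT means were at the KO level or below it, at 21.1 CPM for Aurka (SD 1.28, n = 3), 45.4 for Bub1b (SD 0.391, n = 3) and 24.8 for Plk1 (SD 1.25, n = 3).

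Because the cell cycle genes moved together, the RefSeq promoter windows (GRCm38.p6, 250 bases before to 50 after the start) were searched on both strands for known cell cycle elements. The E2F element, written TTTCCCGC or TTTGGCGC, was in 9 of 23 G1/S genes with a window (39.1%) and in 3 of the 10 that fell (30%), against 1.80% of 27025 genes and 3.15% of the 11005 tested genes with a window. The cell cycle homology region (CHR) core TTTGAA was in 20 of 27 G2/M genes (74.1%) and in 10 of the 14 that fell (71.4%), against 20.2% of all genes and 15.1% of those tested. Members that fell carried neither element more often than their list as a whole, and a match describes the letters only. Upstream stretches of 80 bases of G1/S genes (Cdc6 and Mcm6) and G2/M genes (Ccnb2, Kif2c, Cdk1 and Top2a) that fell are shown, 5′ to 3′ along the gene's strand, with the element or its reverse complement in capitals.
Cdc6, chr11:98907978-98908057, plus strand: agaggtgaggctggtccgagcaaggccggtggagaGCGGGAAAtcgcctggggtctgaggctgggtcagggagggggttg
Mcm6, chr1:128359771-128359850, minus strand: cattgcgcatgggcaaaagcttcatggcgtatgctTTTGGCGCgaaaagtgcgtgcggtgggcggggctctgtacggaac
Ccnb2, chr9:70421677-70421756, minus strand: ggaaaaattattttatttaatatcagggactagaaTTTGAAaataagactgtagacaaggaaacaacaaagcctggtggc
Kif2c, chr4:117178831-117178910, minus strand: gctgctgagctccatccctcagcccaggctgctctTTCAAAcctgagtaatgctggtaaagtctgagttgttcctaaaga
Cdk1, chr10:69352939-69353018, minus strand: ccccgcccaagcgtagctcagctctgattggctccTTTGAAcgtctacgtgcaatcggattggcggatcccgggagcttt
Top2a, chr11:99024324-99024403, minus strand: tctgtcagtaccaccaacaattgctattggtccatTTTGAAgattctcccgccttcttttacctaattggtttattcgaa

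Genes of the repair route in which BRCA1 acts were lower or did not pass the test. Of 34 tested homologous recombination genes 6 fell and 0 rose (17.6% fell), with a median of -0.26, and 27 were below 0. Rad54l, a DNA motor protein of recombination, had 8.53, 9.5 and 10.2 CPM in HET and 4.42, 5.61 and 6.03 CPM in KO (log2 -0.81, SE 0.159, edgeR adjusted p = 0.0101). Its groups did not overlap. The end-resecting nuclease gene Exo1 fell by 0.75 (SE 0.168, edgeR adjusted p = 0.024), a call lost in 3 of 6 repeats. In the paired fit 14 of the 34 were called, all lower. Leaving out single libraries left 2 to 4, leaving out both replicates 1 left 1, and length offsets left 0.

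Among 16 tested members of the BRCA1 complexes, 3 fell and 0 rose, Brca1 and Palb2 among them, and the paired fit called 7. Palb2, which bridges BRCA1 to BRCA2, had a log2 change of -0.57 without DHT (SE 0.132, edgeR adjusted p = 0.0287) and 0.00192 with DHT (edgeR adjusted p = 0.997). It was the only one of the 448 called genes with the opposite sign in the other medium, and its call was lost whichever of the 6 libraries was left out (edgeR adjusted p = 0.0546 to 0.104). Of 18 end joining genes 1 fell, Polq, the polymerase of microhomology-mediated joining, with 4.72, 3.86 and 3.89 CPM in HET and 2.73, 2.32 and 2.37 CPM in KO (log2 -0.75, SE 0.174, edgeR adjusted p = 0.0283). The Polq call was lost in 4 of 6 repeats and with length offsets. None of the 15 checkpoint kinase and mediator genes passed, with Topbp1 at a log2 change of -0.14 and Wee1 at -0.03, while with pairing 1 rose and 5 fell. Of 27 targets of p53, the damage-responsive transcription factor, 0 rose and 0 fell, with a median of 0.19, while the paired fit called 13 higher and 4 lower. Ccng1, its most abundant member, had 714, 537 and 352 CPM in HET and 852, 625 and 436 CPM in KO, so the groups overlapped although each KO library exceeded its HET partner (log2 0.25, SE 0.230, edgeR adjusted p = 0.858).

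The unfolded protein and integrated stress responses raise chaperones and, through the transcription factor ATF4, amino acid synthesis when protein folding or amino acid supply falls short. Of 28 tested members 8 fell and 0 rose (28.6% fell), all 28 were below 0, and the median was -0.38. Asns, asparagine synthetase, had 105, 104 and 110.5 CPM in HET and 66.3, 67.1 and 64.5 CPM in KO (log2 -0.69, SE 0.102, edgeR adjusted p = 0.00127). Psat1 of serine synthesis had 269, 282 and 277 CPM against 197, 202 and 199 CPM (log2 -0.47, SE 0.070, edgeR adjusted p = 0.0012). Values within each group lay close together and the groups were apart. Mthfd2, a mitochondrial folate enzyme, fell by 0.62 (SE 0.111, edgeR adjusted p = 0.00517). Ppp1r15a, which ends the block of translation, fell by 0.70 (SE 0.125, edgeR adjusted p = 0.00539), and here the WT mean of 44.1 CPM (SD 6.50, n = 3) was near HET. For Asns (64.6 CPM, SD 10.2, n = 3) and Mthfd2 (34.1 CPM, SD 4.91, n = 3) the WT mean was near KO. For Psat1 (224 CPM, SD 10.1, n = 3) it lay between the groups. The paired fit called 27 of the 28, all lower. Leaving out single libraries left 5 to 8, while leaving out both replicates 1 left 3.

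The ATF4 element, searched as TGATGNAA on both strands, was in 5 of 25 stress response genes with a window (20%) and in 3 of the 8 that fell (37.5%), against 4.51% of all windows and 2.97% of those of tested genes. The 3 stretches are shown because their genes fell together, with the element in capitals.
Asns, chr6:7693210-7693289, minus strand: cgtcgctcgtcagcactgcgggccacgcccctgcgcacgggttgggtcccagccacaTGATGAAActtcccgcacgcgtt
Atf3, chr1:191183399-191183478, minus strand: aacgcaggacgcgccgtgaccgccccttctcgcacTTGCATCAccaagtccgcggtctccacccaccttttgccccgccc
Herpud1, chr8:94386282-94386361, plus strand: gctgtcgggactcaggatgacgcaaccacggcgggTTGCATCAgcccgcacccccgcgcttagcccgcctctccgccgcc

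Mesenchymal and matrix genes rose in KO organoids and included the largest rises of well-expressed genes. Sparc, a secreted collagen-binding glycoprotein, had 22.9, 22.5 and 22.2 CPM in HET and 104, 109 and 103 CPM in KO. Its log2 change was 2.23 (SE 0.093, edgeR adjusted p = 9.69e-10). Vim, the intermediate filament of mesenchymal cells, had 3.70, 3.69 and 3.87 CPM against 18.4, 20.4 and 17.2 CPM (log2 2.31, SE 0.190, edgeR adjusted p = 2.63e-06). Within each group the 3 values lay close together for both genes. The adhesive glycoprotein Tnc went from 232, 223 and 267 CPM to 499, 438 and 521 CPM (log2 1.02, SE 0.109, edgeR adjusted p = 5.38e-05), and fibronectin, Fn1, from 81.3, 84.5 and 98.5 CPM to 176, 165 and 195 CPM (log2 1.02, SE 0.147, edgeR adjusted p = 0.000999). These 4 were the members that rose among 13 tested of the mesenchymal transition list, and 0 fell (30.8% rose, beside 1.35% of all genes; median 0.49). They were called whichever single library was left out, and Sparc and Vim also in the 6 libraries without pairing. With pairing 8 of 12 rose and 1 fell. The factors Snai2, Zeb2 and Twist2, which drive that transition, were tested and not called, at log2 changes of 0.11, -0.16 and -0.11. WT means lay near KO for Sparc (94.9 CPM, SD 6.04, n = 3), between the groups for Vim (9.29, SD 2.12, n = 3) and below HET for Fn1 (52.0, SD 8.27, n = 3).

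Of 21 collagen, laminin and matrix genes 3 rose and 0 fell (14.3% rose, median 0.38), and the paired fit called 11, all higher. Thbs1, thrombospondin, had 443, 542 and 606 CPM in HET and 788, 848 and 1003 CPM in KO (log2 0.73, SE 0.142, edgeR adjusted p = 0.00983). The basement membrane collagen gene Col4a2 rose by 0.93 (SE 0.224, edgeR adjusted p = 0.0358), from 23, 26.6 and 41.5 CPM to 45.0, 50.2 and 78.1 CPM. Smoc1, a calcium-binding matrix protein gene, had 0, 0.116 and 0.112 CPM against 1.24, 2.09 and 2.07 CPM. The serpin gene Serpinb2, an inhibitor of plasminogen activators, had 11, 10.4 and 8.34 CPM against 30.9, 21.4 and 18.3 CPM (log2 1.24, SE 0.202, edgeR adjusted p = 0.00268), and with the protease gene Adamts9 (log2 0.50, edgeR adjusted p = 0.00603) made up the 2 of 22 protease and inhibitor genes that rose, with 0 falling. Pairing gave 9 higher and 2 lower, and the Col4a2 call was lost in 4 of 6 repeats. The hyaluronan synthase gene Has2 rose by 1.76 (SE 0.320, edgeR adjusted p = 0.00571) and the collagen receptor gene Itga1 by 1.28 (SE 0.195, edgeR adjusted p = 0.00168).

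Summed levels of 10 fibroblast markers were 7.83 to 11.9 CPM in HET and 18.7 to 26.3 CPM in KO, and Dcn, a small matrix proteoglycan, made up most of them. Dcn had 9.65, 9.34 and 6.36 CPM in HET and 23.7, 25.0 and 17.5 CPM in KO (log2 1.39, SE 0.193, edgeR adjusted p = 0.000749). It was the only call among the 5 fibroblast markers tested. The fibroblast collagen Col1a1 reached 0.672 CPM at most, and Col1a2, Col3a1, Lum and Postn stayed at or below 0.165 CPM in all 6 libraries. In the smooth muscle markers, Acta2 had mean levels of 0.842 CPM in HET and 3.47 CPM in KO and Tagln 0.729 and 2.13 CPM. Both were called, and the call of Tagln was lost in 4 of 6 repeats. Of the 6 smooth muscle markers tested, 4 had log2 changes above 0 and 2 below it. Myh11 had means of 0.237 CPM in HET and 0.150 CPM in KO. Des and Actg2 were at 0.0478 and 0.0106 CPM in HET and 0 in KO. The sum over the 8 smooth muscle markers overlapped, at 232 to 316 and 236 to 326 CPM, nearly all of it Smtn, which epithelial cells also express. Endothelial Cdh5 and Cldn5 had 0 reads, and the leukocyte marker Ptprc was at 0.436 CPM or less. Summed leukocyte markers were 68.6 to 108 CPM in HET and 47.3 to 62.2 CPM in KO, mostly Cd68, endothelial markers 3.52 to 6.86 and 3.04 to 5.58 CPM, and seminal vesicle markers at most 0.0417 CPM. In bulk RNA, more cells of a type and more RNA per cell cannot be told apart, and the part of these markers in the matrix result was not tested.

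**Figure D3:**
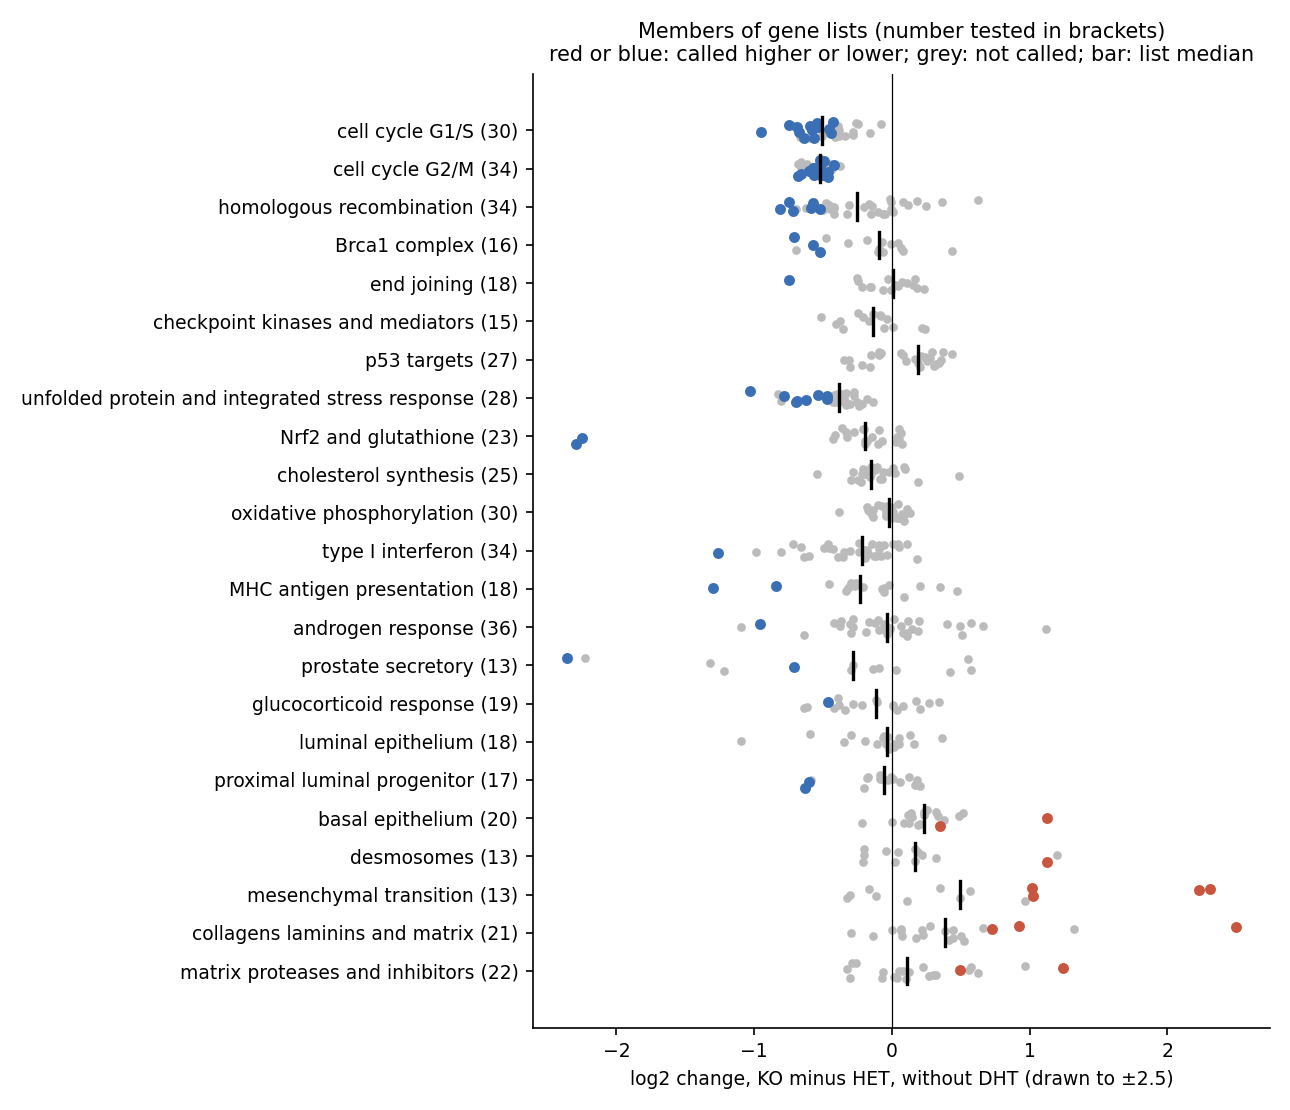
Log2 change of KO minus HET without DHT (horizontal axis, drawn to ±2.5) for every tested member of 23 gene lists, 1 row per list with the number tested in brackets. Red and blue points were called higher or lower and black bars are list medians. All tested members of the G1/S, G2/M and stress response lists lie below 0, and called members of the mesenchymal, matrix and basal lists lie above it.

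Basal epithelial genes were mostly above 0, with few calls. Of 20 tested, 2 rose and 0 fell (10% rose), 19 were above 0 and the median was 0.23. Dsc3, a desmosomal cadherin of basal cells, had 31.3, 32.4 and 25.8 CPM in HET and 77.5, 62.8 and 54.5 CPM in KO (log2 1.12, SE 0.142, edgeR adjusted p = 0.000291). Dst, which anchors keratins at hemidesmosomes, had 471, 452 and 419 CPM against 608, 564 and 539 CPM (log2 0.35, SE 0.081, edgeR adjusted p = 0.027). With pairing 14 of 20 were called, all higher, while the Dst call was lost in 4 of 6 repeats. Among them was the basal keratin Krt5, with 1299, 1435 and 1928 CPM against 1515, 1964 and 2405 CPM, overlapping groups in which each KO library exceeded its partner (log2 0.34, SE 0.186, edgeR adjusted p = 0.554, and adjusted p = 0.00328 in the paired edgeR fit).

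Of 18 luminal genes 0 rose and 0 fell, with a median of -0.03. With pairing 1 rose and 5 fell. The abundant luminal members Krt19 and Cd24a had log2 changes of -0.04 and 0.06. Of 17 genes of the proximal luminal progenitor list 2 fell and 0 rose, and with pairing 4 fell and 2 rose. Pigr, the receptor that carries IgA across epithelium, had 370, 406 and 389 CPM in HET and 234, 267 and 252 CPM in KO (log2 -0.63, SE 0.084, edgeR adjusted p = 0.00055). Psca, prostate stem cell antigen, had 224, 184 and 187 CPM against 129, 128 and 136 CPM (log2 -0.60, SE 0.135, edgeR adjusted p = 0.024). Both had WT means at the lower, KO end, of 215 CPM (SD 15.0, n = 3) and 107 CPM (SD 11.8, n = 3), and the Psca call was lost in 5 of 6 repeats. The tight junction gene Cldn1 was the single call among 17 junction genes (1 higher and 1 lower with pairing), with 23.5, 27.7 and 18.7 CPM against 65.6, 48.5 and 41.4 CPM (log2 1.15, SE 0.194, edgeR adjusted p = 0.00332).

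Few genes of the steroid hormone lists passed the test in this medium. Esr1, the estrogen receptor, had 17.4, 19.9 and 17.5 CPM against 23.8, 24.0 and 19.9 CPM, whose nearest values were almost equal, and it did not pass (log2 0.30, SE 0.105, edgeR adjusted p = 0.178, and 0.025 in the paired edgeR fit). The glucocorticoid receptor gene Nr3c1 (log2 -0.07), the mineralocorticoid receptor gene Nr3c2 (log2 -0.46, edgeR adjusted p = 0.27) and Esr2 (log2 -0.22) did not pass either. Of 36 androgen response genes 1 fell and 0 rose (2.78% fell, beside 1.56% of all genes), the proton pump gene Atp12a, with 2.25, 4.23 and 4.43 CPM against 1.78, 1.69 and 2.19 CPM (log2 -0.95, SE 0.232, edgeR adjusted p = 0.0367). The paired fit called 5 higher and 10 lower among 35, and the Atp12a call was lost in 5 of 6 repeats. Of 13 genes of the prostate secretory list 2 fell, and neither is a classical secretory product. They were the adhesion gene Ceacam1, with 1150.5, 856 and 784 CPM against 693, 534 and 482 CPM (log2 -0.71, SE 0.145, edgeR adjusted p = 0.0135), and the mechanosensitive channel gene Piezo2 (log2 -2.36, SE 0.525, edgeR adjusted p = 0.0226). Of 19 glucocorticoid response genes 1 fell, Errfi1, a feedback inhibitor of EGFR (log2 -0.47, SE 0.093, edgeR adjusted p = 0.0117). With pairing the secretory list had 1 rise and 5 falls among 12 and the glucocorticoid list 4 rises and 8 falls. Leaving out libraries lost Ceacam1 in 3, Piezo2 in 4 and Errfi1 in 4 of 6 repeats.

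Few immune genes passed the test over all libraries. Of 34 type I interferon genes 1 fell and 0 rose, with a median of -0.22 and 29 below 0. It was Oas2, a sensor of double-stranded RNA, with 23.1, 24.8 and 34.7 CPM in HET and 11.1, 10.6 and 12.8 CPM in KO (log2 -1.26, SE 0.192, edgeR adjusted p = 0.00164). The paired fit called 17 lower and 1 higher. Of 18 antigen presentation genes 2 fell, the nonclassical class I genes H2-Q6 and H2-Q7, which are near-identical copies, so their reads were also summed, and the sum went from a mean of 23.2 to 12.2 CPM. Pairing gave 1 higher and 7 lower, and the H2-Q7 call was lost in 3 of 6 repeats. None of the 12 nucleic acid sensing genes passed, and with pairing 3 fell. Tmem173, the STING gene, was at -0.31 (edgeR adjusted p = 0.42, and 0.00396 paired) and Ddx58, the RIG-I gene, at -0.18 (edgeR adjusted p = 0.707, and 0.016 paired). Of 24 chemokines and cytokines 1 rose, the macrophage growth factor gene Csf1, with 24.3, 26.4 and 31.0 CPM against 34.1, 40.5 and 45.3 CPM (log2 0.56, SE 0.114, edgeR adjusted p = 0.0133). With pairing 4 rose and 2 fell, and the Csf1 call was lost in 4 of 6 repeats.

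Metabolic lists held few calls. No oxidative phosphorylation gene of 30, no mitochondrial genome gene of 13 and no cholesterol synthesis gene of 25 passed, with medians of -0.02, 0.02 and -0.15. In the paired fit 11 cholesterol genes were lower and 2 higher, and 4 oxidative phosphorylation genes were lower, beside 9.93% of all genes lower. Of 27 hypoxia and glycolysis genes 1 fell, the vasodilator peptide gene Adm, with 148, 87.4 and 88.3 CPM in HET and 59.1, 54.8 and 49.2 CPM in KO (log2 -0.99, SE 0.231, edgeR adjusted p = 0.0303), while the paired fit called 14 lower and 1 higher. The Adm call was lost in 4 of 6 repeats. Of 14 retinoid genes 1 rose and 1 fell, and with pairing 4 rose and 1 fell. The retinoic acid carrier gene Crabp2 rose from 14.2, 12.2 and 10.2 CPM to 25.2, 25.3 and 20 CPM (log2 0.95, SE 0.158, edgeR adjusted p = 0.00308). Among 7 cyclin-dependent kinase inhibitor genes 1 rose, Cdkn2b, with 42.7, 40.4 and 45.7 CPM against 57.2, 61.6 and 71.8 CPM (log2 0.57, SE 0.114, edgeR adjusted p = 0.0119). That call was lost in 2 of 6 repeats, and with pairing 2 of the 7 rose and 4 fell.

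The remaining lists held at most 2 calls each, with more in the paired fit. Of 23 genes of the NRF2 and glutathione list 2 fell, the glutathione transferase genes Gsta1 and Gsta2, which are near-identical copies at a family sum of 3.10 CPM in HET and 1.28 CPM in KO, and with pairing 13 fell. Single genes rose in 4 further lists. Dmkn, a secreted epidermal protein gene, rose among 26 squamous genes, with 11.7, 13.0 and 13.2 CPM against 18.2, 17.8 and 18.7 CPM (log2 0.53, SE 0.127, edgeR adjusted p = 0.0354). The Wnt inhibitor gene Apcdd1 rose by 0.46 among 13 Wnt targets (edgeR adjusted p = 0.024), the MAPK inhibitor gene Spred3 by 0.75 among 19 MAPK output genes (edgeR adjusted p = 0.0249) and the caspase gene Casp12 by 0.68 among 24 apoptosis regulators (edgeR adjusted p = 0.024). Of these calls Gsta2 and Dmkn were lost in 6 of 6 repeats, Spred3 in 4, and Gsta1, Apcdd1 and Casp12 in 3. With pairing, 3 squamous genes rose and 0 fell, 4 Wnt targets rose and 0 fell, 3 MAPK output genes rose and 1 fell, and 5 apoptosis regulators rose and 1 fell. Dsc3 was the only call among 13 desmosome genes (6 higher and 3 lower with pairing) and Dcn among 13 imprinted genes (2 higher and 1 lower with pairing). None passed without pairing among 8 Hedgehog, 13 EGF ligand and receptor, 10 Ifi200 family, 22 Hox and 19 circadian clock genes. With pairing 2 Hedgehog genes rose and 1 fell, 4 EGF genes rose and 2 fell, 1 Ifi200 gene rose and 1 fell, 1 Hox gene rose and 5 fell, and 2 clock genes rose and 6 fell. Over all genes the paired fit called 8.75% higher and 9.93% lower, and several of these counts, such as those of the Ifi200 family, are near those shares.

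Other large rises lay mostly outside the functional lists. Ncam1, a cell adhesion molecule of neural and neuroendocrine cells, had 1.92, 3.16 and 2.65 CPM in HET and 12.1, 10.7 and 9.03 CPM in KO (log2 2.03, SE 0.173, edgeR adjusted p = 4.12e-06). It made up most of the summed neuroendocrine markers, which were 2.76 to 3.86 CPM in HET and 9.52 to 12.8 CPM in KO. Its WT mean was 15.0 CPM (SD 0.708, n = 3), above KO. The glutamate receptor gene Gria3 had 4.90, 3.95 and 2.87 CPM against 15.2, 16.5 and 11.3 CPM (log2 1.89, SE 0.195, edgeR adjusted p = 3.51e-05). Slitrk6, a synaptic adhesion gene, rose by 1.25 (SE 0.312, edgeR adjusted p = 0.0412), Ano3 of the anoctamin family by 1.27 (SE 0.286, edgeR adjusted p = 0.024), Lrrn4cl by 1.41 (SE 0.218, edgeR adjusted p = 0.00185) and Rsad1 by 1.24 (SE 0.224, edgeR adjusted p = 0.00571). Leaving out libraries lost the call of Slitrk6 in 5 and of Ano3 in 4 of 6 repeats.

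The largest falls divide into genes with near-identical copies and genes without. Ftl2-ps, a ferritin light chain pseudogene, had 92.8, 133 and 176 CPM in HET and 0, 3 and 3 reads in KO, while the parent gene Ftl1 went from a mean of 485 to 987 CPM. Summed over the 6 ferritin copies, KO held 0.886 of the HET level. The enolase copy Eno1b went from a mean of 587 to 12.1 CPM and its parent Eno1 from 916 to 1443 CPM, and the sum over 4 copies again came to 0.886 of HET. Kpna2, a nuclear import receptor, fell from 53.1, 72.2 and 64.8 CPM to 2.56, 2.42 and 2.59 CPM, its copy Gm10184 rose from a mean of 59.2 to 101 CPM, and the sum of 5 copies in KO was 0.842 of HET. For these families the split of reads between copies changed far more than their sum, and the falls of the separate copies are uncertain. They differ from Xlr3b, an X-linked lymphocyte gene, whose family sum in KO was 0.0724 of HET, and from Fcgr3, an Fc receptor gene, whose sum with Fcgr2b was 0.448 of HET. Among called genes with a log2 change over 2 in size, 14 of the 49 lower and 5 of the 22 higher in KO were annotated pseudogenes, beside 29 of all 448 called. The labels used here do not give the strain background of each library, and its part in these copies was not tested.

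Other falls were in genes with no near-identical copy found. Ctsh, a lysosomal cysteine protease, had 430, 398 and 346 CPM in HET and 117, 114 and 101 CPM in KO (log2 -1.82, SE 0.110, edgeR adjusted p = 4.04e-08). Trim12a, of the antiviral TRIM5 group, had 9.47, 8.74 and 7.51 CPM against 1.40, 0.626 and 1.34 CPM (log2 -2.95, SE 0.260, edgeR adjusted p = 6.01e-06). The dihydrodiol dehydrogenase gene Dhdh had 33.4, 18.6 and 14.3 CPM against 4.96, 2.94 and 2.35 CPM (log2 -2.72, SE 0.305, edgeR adjusted p = 8.95e-05). Every KO library was below every HET library in these 3 genes. Trf, the iron carrier transferrin, had 60, 87.6 and 95.4 CPM against 10.8, 21.7 and 20.9 CPM (log2 -2.18, SE 0.254, edgeR adjusted p = 0.000137). The ceramidase gene Acer2 fell by 1.45 (SE 0.127, edgeR adjusted p = 5.49e-06) and the endosomal sorting gene Mvb12b by 1.70 (SE 0.312, edgeR adjusted p = 0.00627). WT was not uniformly on one side, with means of 232 CPM for Ctsh (SD 27.3, n = 3) and 36.6 for Trf (SD 0.856, n = 3) between the groups, 16.8 for Dhdh (SD 2.80, n = 3) near HET and 1.14 for Trim12a (SD 0.165, n = 3) at KO.

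Over all 448 called genes the WT mean lay nearer KO than HET in 305 and nearer HET in 143, without a test. Of the 240 genes lower in KO, WT was nearer KO in 182 and beyond it in 120. Of the 208 genes higher in KO, it was nearer KO in 123.

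The 6 libraries grown with DHT measured the same contrast on separate libraries. Both contrasts came from the same fit with a shared estimate of spread per gene, so their calls are not independent. Whether the libraries of the 2 media share animals or cultures is not given in the labels. There 544 genes were called (3.53%), 276 higher (1.79%) and 268 lower (1.74%). Of the 448 called without DHT, 346 were called in the same direction with DHT, which is 77.2% of the first set and 63.6% of the second, and 0 were called in the opposite direction. In 447 of 448 the sign was the same, and groups did not overlap in 441, beside 31.1% of all genes tested with DHT. Median changes of the genes higher without DHT were 0.85 without and 0.80 with DHT, and of those lower -0.76 and -0.71. Sparc, for example, changed by log2 2.26 with DHT (edgeR adjusted p = 6.58e-10), Vim by 2.06, Aurka by -0.73 and Asns by -0.79. In the other medium 12 of 30 G1/S, 18 of 34 G2/M and 13 of 28 stress response genes fell.

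**Figure D4:**
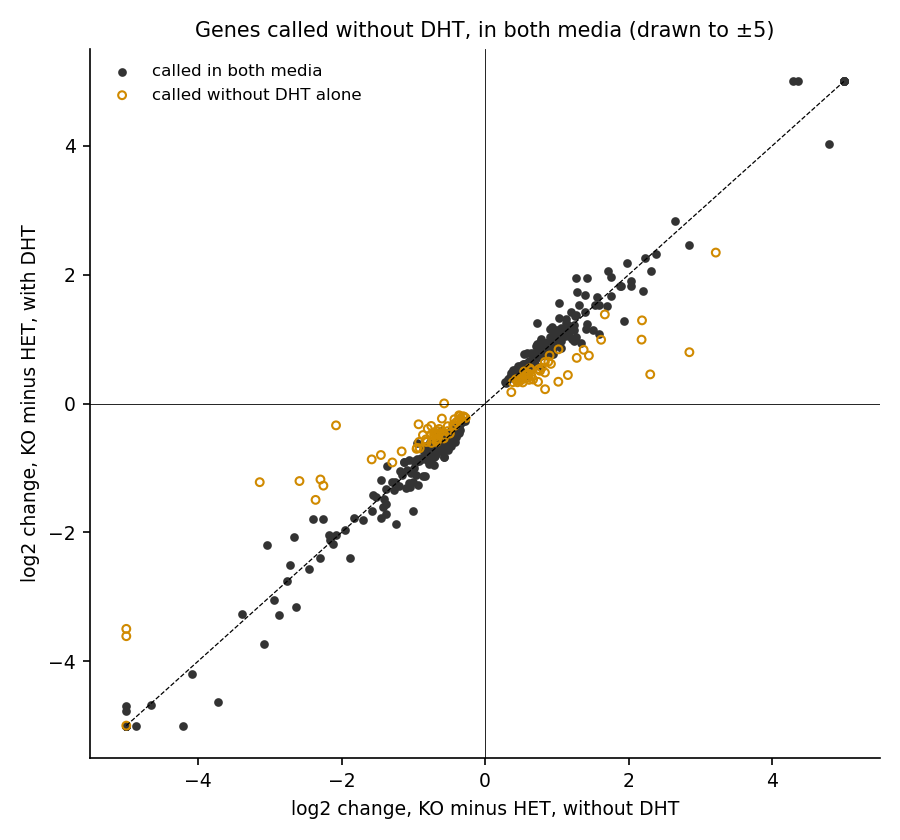
Log2 change of KO minus HET without DHT (horizontal axis) and with DHT (vertical axis), both drawn to ±5, for the 448 genes called without DHT. Filled points are the 346 also called with DHT and open points the rest, and the dashed line marks equal changes. Apart from Palb2, all points have the same sign on both axes.

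A direct test of the difference between the media called 0 genes in edgeR, with 151 (0.98%) at an unadjusted p under 0.05, and DESeq2 called 1. That was Gm10273, named after its value was seen, which among the 12 compared libraries had reads in only 2, 396 in HET with DHT replicate 3 and 383 in KO without DHT replicate 3. The 5 genes with the lowest p in edgeR, Pax3, Gm21972, Gm45880, Fcmr and Gm12033, all stayed at 1.57 CPM or less in the libraries without DHT. These tests do not show that the change was equal in both media.

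Genes near Brca1 were counted apart from the rest. Within 20 Mb on either side, 16 of 534 genes were called, 5 higher and 11 lower, which is 3.00% against 2.91% of all genes, and 1.52% on the rest of chromosome 11. Cdc6, Top2a, Kpna2 and Rsad1, named above, were among the 16. The paired fit called 96 near Brca1, beside 18.7% of all genes in that fit. Within 1 Mb none of 66 genes was called.

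A run of neighbouring genes on chromosome 4, picked after its values were seen, was lower in HET than in KO. It spans 11 tested genes from Ifnlr1 to Pithd1 (135686287 to 135987264, GRCm38, GENCODE M21). Apart from Cnr2, which is barely expressed, all 10 had log2 changes between 0.55 and 1.02 without DHT and between 0.56 and 1.23 with DHT, and 6 passed the test without DHT. Each KO library exceeded the HET library of its number in these 10, as in 25.3% of all genes tested, while the calls of Il22ra1, Pnrc2, Lypla2 and Pithd1 were each lost in 4 of 6 repeats. Ifnlr1, the interferon lambda receptor, had 17.4, 20 and 22.8 CPM in HET and 32.3, 35.6 and 43.0 CPM in KO. The lysosomal fucosidase gene Fuca1 had 32.1, 39.5 and 42.4 CPM against 60.4, 77.3 and 81.7 CPM. WT means exceeded HET in all 10 genes, and for Fuca1 the WT mean was 81.1 CPM (SD 5.18, n = 3). On either side Grhl3 (log2 -0.06) and Eloa (log2 -0.39) did not share the rise. Among 10423 runs of 12 adjacent genes, the largest median change in size outside this stretch was 0.28, and here it reached 0.82. The part of strain background in this stretch was not tested either.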

How the data were processed

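RNA of 24 libraries was sequenced, and the 18 organoid libraries were analysed here. The authors deposited estimated counts, TPM and effective lengths for 116945 transcripts per library, per the file headers. The submitters' processing notes name Salmon 0.13.1 and the build hg38, although the deposited identifiers are mouse Ensembl transcripts, and no source used here names the index annotation. Estimated counts were summed per gene through GENCODE mouse release 21 and rounded. In each library 1000 transcripts without a gene there were left out, with 0.24% to 0.35% of reads. Strandedness is not given, so overlapping antisense genes cannot be told apart.

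Genes passing filterByExpr by group (15415) were tested with the quasi-likelihood F-test of edgeR 4.0.16 in R 4.3.3 with TMM scaling and 1 mean per group (12 residual degrees of freedom). P-values were adjusted by Benjamini-Hochberg over all genes at 0.05. CPM are TMM-scaled. Replicate numbers were taken as pairing HET and KO libraries without DHT because each same-number correlation of deviations exceeded 0.1. The correlation of HET replicate 3 with KO replicate 2 also did, at 0.107, so this limit does not separate pairs from the rest. With DHT the same-number correlations were 0.017, 0.013 and -0.234, which is no pairing. Near-identical copies were searched with BLAST+ 2.17.0.

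Members and 48 gene lists were chosen with earlier results of these data known. Matched by symbol, 840 entries were tested, 94 fell below the filter, 15 had no reads and 16 were not listed. Named genes are Brca1, steroid receptors, the 12 largest called rises and falls with at least 5 CPM and no overlap of groups (predicted genes and clone names aside), the 5 lowest p between media, and per list up to 4 called members of lowest p or the 2 most abundant. Some genes under this rule are not reported here. Snai2, Zeb2, Twist2, genes of the fibroblast and other marker lists, family copies, Mcm6, Ccnb2, Kif2c, Cdk1, Top2a, Atf3 and Herpud1 were named outside this rule. Alternatives were DESeq2 1.42.0, its size factors, no or a stricter count filter, length offsets, a replicate block, only the groups compared, the mitochondrial share as a covariate and leaving out each library. The paired fit of 6 libraries and the fit without both replicates 1 were added after seeing the data.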

Additional observations from a re-analysis of the deposited data

How the results depend on the processing

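The number of genes called without DHT was 448, and 798 with DESeq2, 1322 with the mitochondrial read share as covariate, 273 with transcript length offsets, 27 in the 6 libraries compared alone, 2722 in those with the replicate block and 275 without both replicates 1. The same settings, in that order, gave 134, 189, 49, 4, 343 and 55 called list members against 82, and 30, 53, 13, 2, 96 and 15 called genes near Brca1 against 16. With DHT, 544 became 992 with DESeq2, 1579 with the covariate, 1234 in the 6 libraries compared alone and 845 without both replicates 1 of the other medium, and 653 with the replicate block over all 18 libraries, which gave 530 without DHT. Brca1 kept its direction throughout and missed the threshold only in the 6 libraries alone (log2 -0.71, edgeR adjusted p = 0.2746). Leaving out single libraries gave 226 to 366 calls without DHT, 246 to 351 with DHT, 0 to 0 for the difference between media, 43 to 72 list members, 7 to 18 genes near Brca1 and -0.82 to -0.64 for Brca1. DESeq2 called 1 gene for the difference between media. The cause of these shifts was not tested. Of the 448 genes, 448 kept their direction in DESeq2 and with the replicate block over 18 libraries and 445 with length offsets, under which 253 were still called. Size factors (452), no filter (317) and the stricter filter (456) changed none of these totals by over 1.5 times, but without a filter G1/S calls went from 13 to 8, homologous recombination from 6 to 3 and Brca1 complexes from 3 to 1. With 3 libraries a group and a pairing known only from the numbers, small changes were not detectable.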
